A study of Mus musculus with 23 samples.

Results

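The 6 ADAM family sheddases described here are Adam8, Adam9, Adam10, Adam15, Adam17 and Adam19. They were taken by symbol from a gene count table of 47729 entries, each symbol matched 1 Ensembl entry, and all 6 passed the filter on low counts that left 16260 genes for testing. ADAM proteins are membrane-anchored metalloproteases with a disintegrin domain, made as inactive precursors that proprotein convertases such as furin cut in the secretory pathway. Active members cleave other membrane proteins close to the cell surface, which releases cytokines, growth factors and receptor ectodomains and lets gamma-secretase cut what remains. In myeloid cells the family is best known for ADAM17, which releases tumour necrosis factor with its partner iRhom2, and for ADAM10, which cleaves Notch receptors and transmembrane chemokines. Transcript counts measure neither the processing nor the activity of these enzymes.

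The study sorted myeloid cells from subcutaneous tissue of wild-type C57BL/6J mice to follow how tissue reacts to implanted hydrogels of poly(ethylene glycol) (PEG), which are water-swollen polymer networks. Both cell types were gated on Cx3cr1, and Ly6C divided them into macrophages (low) and monocytes (high). Each cell type was collected from mice with no implant (control) and at 2, 14 and 28 days after a hydrogel was placed under the skin, which gives 8 groups. There were 3 biological replicates a group, except for 2 in the macrophage controls. All groups are described with the same strain, tissue and digestion with Liberase TM. No age or sex of the mice or pooling of animals is given in the sources used here. The labels' protocol describes tissue and hydrogel taken out together, and gives no separate account of the controls.

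The libraries held 9303153 to 32994092 counts each (median 24722229). Levels are in CPM, a gene's count relative to the TMM-scaled library total, and genes are compared with each other per kilobase of merged exons. Macrophage markers fixed for this work (10 genes, among them Adgre1 and Csf1r) summed to 10558 to 21613 CPM in macrophage libraries and to 3017 to 9246 CPM in monocyte libraries. Ly6c2, the gene of the sorted surface antigen, averaged 27.6 to 178 CPM in the 4 macrophage groups and 1333 to 2378 CPM in the 4 monocyte groups. The 14 neutrophil markers summed to 2806 to 4349 CPM in monocyte controls and 195 to 214 CPM in macrophage controls. The 8 fibroblast markers summed to 0.13 to 1.02 CPM and 192 to 259 CPM in turn. Whether both sets of controls came from the same tissue was not tested. In monocytes a difference of source cannot be told apart from the implant. In bulk samples of sorted cells, a lower level can come from fewer cells of a type that expresses a gene or from less RNA per cell, which cannot be told apart.

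In GRCm38 with GENCODE M21 the members lie on 6 chromosomes. Adam8 (ENSMUSG00000025473) is at chr7:139978932-139992562 on the minus strand, Adam9 (ENSMUSG00000031555) at chr8:24949611-25016927 on the minus strand and Adam10 (ENSMUSG00000054693) at chr9:70678997-70780229 on the plus strand. Adam15 (ENSMUSG00000028041) is at chr3:89338542-89349996 on the minus strand, Adam17 (ENSMUSG00000052593) at chr12:21323509-21373632 on the minus strand and Adam19 (ENSMUSG00000011256) at chr11:46055992-46147343 on the plus strand. Their merged exons span 4115 bases in Adam9 to 7154 bases in Adam17. Genes on the opposite strand share 20.6% of the exon bases of Adam15 (4731419I09Rik), 8.25% and 6.75% of those of Adam19 (Gm16033 and Gm16034), 4.35% of those of Adam17 (Iah1) and 0.99% of those of Adam8 (Gm16201). The library kit does not mark strand, so reads from these shared stretches cannot be told apart between the genes, and none of the exon bases of Adam9 and Adam10 is shared.

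RefSeq promoter windows of build GRCm38.p6 were found for 5 of the 6 members, with Adam9 the one not matched. The 250 bases before the start site are printed for Adam8, whose transcripts rose in every implant group, for Adam19, whose transcripts fell in 3 of them, and for Adam17, which passed no test. Capitals mark matches on either strand to AP-1 (TGANTCA), the hypoxia response element core (ACGTG), the GC box (GGGCGG), an ETS site (GAGGAAG) and an NF-kB consensus, and overlapping matches run together.
Adam8, chr7:139992563-139992812, minus strand: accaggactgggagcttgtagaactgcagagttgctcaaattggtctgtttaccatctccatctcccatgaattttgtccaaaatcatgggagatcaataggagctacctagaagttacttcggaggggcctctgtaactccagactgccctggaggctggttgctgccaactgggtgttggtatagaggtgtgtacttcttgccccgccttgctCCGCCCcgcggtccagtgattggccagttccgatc
Adam19, chr11:46055734-46055983, plus strand: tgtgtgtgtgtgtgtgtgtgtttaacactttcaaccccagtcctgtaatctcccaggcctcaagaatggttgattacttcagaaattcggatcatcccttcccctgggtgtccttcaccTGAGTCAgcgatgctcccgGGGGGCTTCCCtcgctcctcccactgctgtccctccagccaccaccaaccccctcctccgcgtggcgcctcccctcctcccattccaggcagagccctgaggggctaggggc
Adam17, chr12:21373633-21373882, minus strand: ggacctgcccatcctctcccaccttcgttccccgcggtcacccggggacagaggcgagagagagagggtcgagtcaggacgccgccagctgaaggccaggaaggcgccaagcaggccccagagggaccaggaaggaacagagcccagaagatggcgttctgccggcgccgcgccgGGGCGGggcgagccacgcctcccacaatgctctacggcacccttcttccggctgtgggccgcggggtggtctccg

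The Adam8 window holds 1 GC box on the opposite strand, the Adam17 window 1 GC box, and the Adam19 window 1 AP-1 match and overlapping NF-kB matches. Over 32817 RefSeq windows of the same length, 32.7% hold the GC box, 6.75% the AP-1 match, 7.25% the NF-kB match, 16.6% the hypoxia core and 10.6% the ETS match. The windows differ in base composition. GC content was 52.8% with 6 CpG dinucleotides in Adam8, beside medians of 52.4% and 6 over all windows. It was 60.0% with 7 in Adam19 and 62.0% with 18 in Adam15. Adam17 had 70.4% with 23, and Adam10 had 74.0% with 29, above 91.2% and 95.1% of all windows. These are descriptions of letters in a window and bear on no factor's binding.

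Adam8, a sheddase found mainly on leukocytes, rose in every implant group of both cell types and was the member that changed most. In macrophage controls A and B it stood at 55.5 and 47.6 CPM. In libraries A, B and C of the implant macrophages it stood at 665, 393 and 607 CPM on day 2, 1234, 653 and 532 CPM on day 14 and 1217, 1053 and 928 CPM on day 28. Each of these 9 libraries lay above both controls, and the library spread was widest on day 14. For 34.8% to 54.1% of all tested genes, implant and control libraries did not overlap in a given comparison with controls. These shares stand beside all such statements below. Against controls the log2 fold change was 3.43 ± 0.62 (SE) on day 2, 3.97 ± 0.64 on day 14 and 4.37 ± 0.66 on day 28. The adjusted p from edgeR's quasi-likelihood test was 0.00078, 0.00037 and 0.00015 in turn, and the 3 comparisons share the same 2 controls.

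In monocytes Adam8 stood at 41.3, 15.7 and 10.2 CPM in monocyte controls A, B and C. It stood at 524, 336 and 688 CPM on day 2, at 780.1, 888 and 508 CPM on day 14 and at 299.5, 1216 and 1101 CPM on day 28. No implant library overlapped the controls, and library A of day 28 was the lowest of its group. The log2 fold changes were 4.52 ± 0.56, 5.02 ± 0.57 and 5.28 ± 0.58, with adjusted p of 6.1e-06, 1.4e-06 and 1.2e-06 (edgeR). Control A was the highest of the 3 monocyte controls, and without it the log2 fold changes were 5.29, 5.74 and 6.10. With the exon length covariate described for Adam17, the day 2 value was 5.67 in monocytes and 4.81 in macrophages, and the day 14 value in monocytes was 6.23. All 6 comparisons of Adam8 with controls passed the test under each of the 31 alternatives tried.

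**Figure D1:**
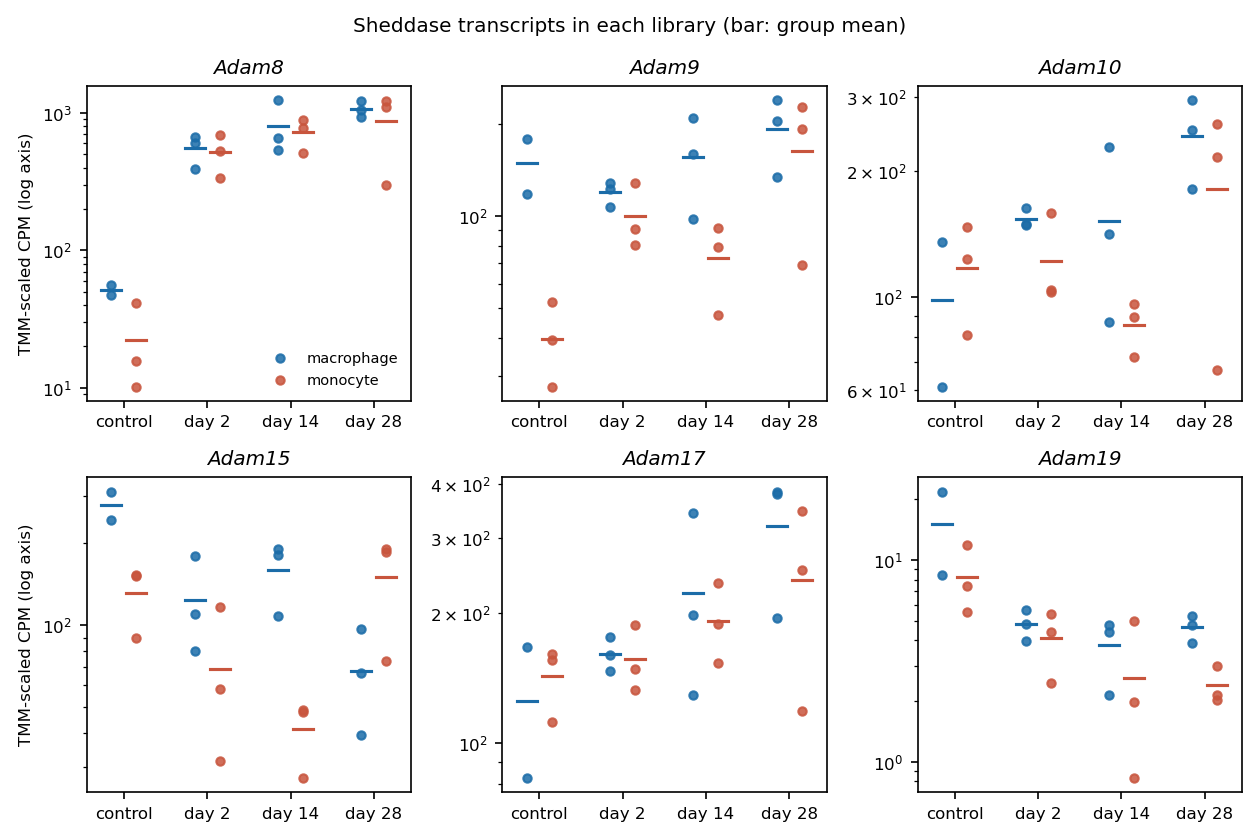
TMM-scaled CPM on a log axis for each of the 6 genes (panels), with 1 point per library, blue for macrophages and red for monocytes, and a bar at the group mean. Adam8 in the implant libraries lies between 299.5 and 1234 CPM, above all 5 controls, and all 18 Adam19 implant values lie below the controls of their cell type. In each comparison with controls, 34.8% to 54.1% of all tested genes did not overlap.

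By group mean, Adam8 was ordered from 1066 CPM in macrophages on day 28 through 872 CPM in monocytes on day 28, 806 and 725 CPM in macrophages and monocytes on day 14, and 555 and 516 CPM on day 2, to 51.5 CPM in macrophage controls and 22.4 CPM in monocyte controls. Neighbours among the 6 implant groups overlapped in their libraries, and no test of day 14 or day 28 against day 2 passed (log2 differences of 0.49 to 0.94, lowest adjusted p = 0.25, edgeR). Macrophages of day 28 did not overlap those of day 2, which held for 28.4% of all tested genes. That test passed without the low count filter (adjusted p = 0.019, edgeR) and with only the groups compared (0.047). With the exon length covariate its value was -0.48. The controls of the cell types did not overlap, which held for 43.5% of all tested genes, and their log2 difference of 1.20 ± 0.53 missed the threshold (adjusted p = 0.16, edgeR). It passed without monocyte control A (1.99, adjusted p = 0.024), without the low count filter and with the exon length covariate. The implant effect was not shown to differ between the cell types. The interaction was -1.10 ± 0.72 on day 2, -1.05 ± 0.72 on day 14 and -0.91 ± 0.72 on day 28, with a lowest adjusted p of 0.40 (edgeR).

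Neutrophils are known to carry ADAM8, so the 14 neutrophil markers were set beside it. Their summed level was 195 to 214 CPM in macrophage controls, 3446 to 7135 CPM on day 2, 177 to 369 CPM on day 14 and 209.6 to 361 CPM on day 28. In monocytes it was 2806 to 4349 CPM in controls, 2390 to 5477 CPM on day 2, 319 to 888 CPM on day 14 and 362 to 603 CPM on day 28. The sum was made up differently in each group. In monocyte controls Ngp, a granule gene of immature neutrophils, averaged 1108 CPM and Retnlg and Cxcr2 averaged 0.91 and 1.10 CPM. On day 2 Ngp averaged 7.46 CPM in monocytes, and Retnlg averaged 208 CPM in monocytes and 274 CPM in macrophages, beside 2.02 CPM in macrophage controls. In macrophages on day 28 Retnlg averaged 2.97 CPM and Ly6g was at 0. S100a8, S100a9 and Mmp8 averaged 93.2, 51.9 and 14.8 CPM there, beside 1.58, 1.32 and 1.35 CPM in macrophage controls. Mmp9 and Csf3r went the other way, at 42.6 and 50.9 CPM beside 118 and 78.5 CPM in macrophage controls. The 6 markers of multinucleated giant cells and osteoclasts (among them Acp5 and Dcstamp) summed to 67.9 to 73.6 CPM in macrophage controls, 193 to 472 CPM on day 2, 724 to 2345 CPM on day 14 and 1099 to 4626 CPM on day 28. In monocytes the same sum was 25.9 to 39.2 CPM in controls and 77.8 to 456 CPM after implantation. Oscar was at 0 in the macrophage controls and on days 2 and 28 in monocytes. Their part in the level of Adam8 was not tested.

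Per kilobase of exon, Adam8 was the fifth of the 6 members in both control groups and the first in all 6 implant groups. It made up 8.48% ± 0.65 (SD, n = 2) of the summed level of the members in macrophage controls and 6.00% ± 3.72 (n = 3) in monocyte controls. Its share was 53.0% ± 8.98, 57.6% ± 4.07 and 60.4% ± 4.40 in macrophages on days 2, 14 and 28 (n = 3 each). In monocytes it was 56.7% ± 5.6, 69.0% ± 2.4 and 56.8% ± 4.05. The largest share in controls belonged to Adam15 in macrophages (35.3% ± 12.3) and to Adam10 in monocytes (29.4% ± 2.24). The order in monocyte controls depends on the length used. Adam15 has 6145 bases of merged exons and a longest transcript of 3914 bases, and Adam10 has 4913 and 4593. The summed level of the 6 genes was 132 ± 24.5 CPM per kilobase in macrophage controls and 382 ± 60.1 on day 28. In monocytes it was 80.9 ± 20.2 in controls and 323 ± 173 on day 28.

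**Figure D2:**
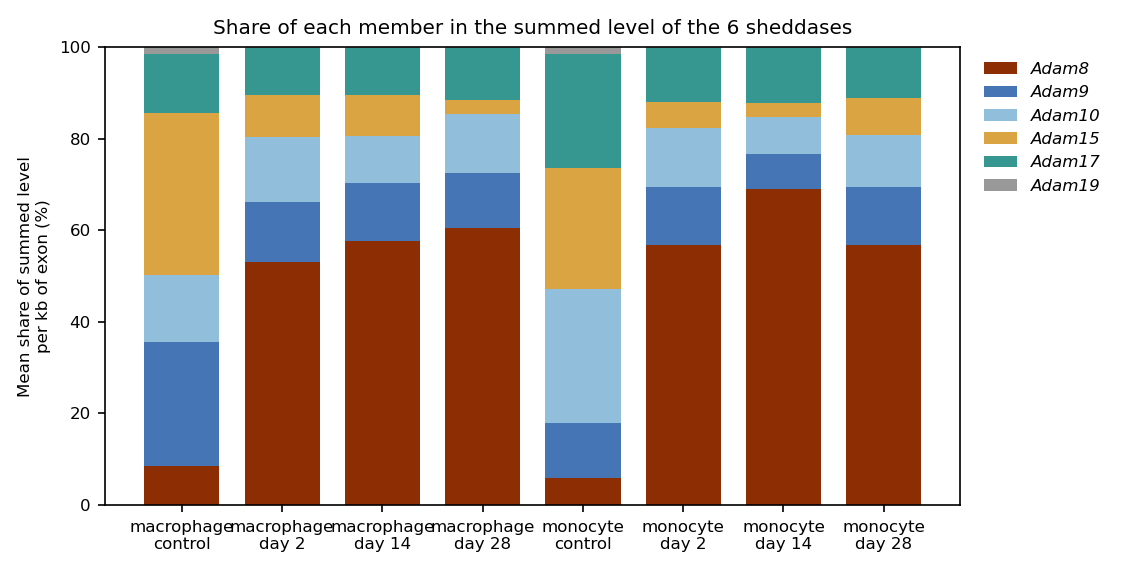
Stacked bars give each member's mean share (%) of the summed CPM per kilobase of exon of the 6 genes in each of the 8 groups. Adam8 (dark red, lowest segment) takes 8.48% and 6.00% in the controls and 53.0% to 69.0% in the implant groups.

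Adam17, known as TNF-alpha converting enzyme, and Adam10, which shares many of its substrates, passed no comparison with controls. Adam17 stood at 167 and 82.7 CPM in the macrophage controls. It stood at 176, 147 and 159.6 CPM on day 2, 343, 198 and 129 CPM on day 14 and 383, 378 and 195 CPM on day 28 in macrophages. The control libraries span a wide range that day 2 lies within or close to, whereas all day 28 libraries lie above it. Fitted log2 fold changes were 0.36 ± 0.43, 0.84 ± 0.44 and 1.35 ± 0.44, the last with an adjusted p of 0.056 (edgeR). In monocytes Adam17 stood at 156, 112 and 161 CPM in controls, 188, 132 and 148 CPM on day 2, 188, 235 and 153 CPM on day 14 and 118, 346 and 252 CPM on day 28. Library A of day 28 lay within the controls and the other two above them. The log2 fold changes were 0.13 ± 0.38, 0.43 ± 0.38 and 0.74 ± 0.38, with adjusted p from 0.18 to 0.84 (edgeR).

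Adam10 stood at 136 and 61.0 CPM in the macrophage controls, 149, 163 and 149.7 CPM on day 2, 228, 141 and 87.3 CPM on day 14 and 250.2, 295 and 181 CPM on day 28. Day 2 and day 28 libraries lay above both controls, and day 14 overlapped them. Set against controls, the log2 changes were 0.65 ± 0.47, 0.63 ± 0.47 and 1.30 ± 0.48, with a lowest adjusted p of 0.090 on day 28 (edgeR). In monocytes Adam10 stood at 123, 81.2 and 147 CPM in controls, 103, 104 and 158 CPM on day 2, 96.3, 89.6 and 71.9 CPM on day 14 and 66.9, 216 and 259 CPM on day 28. Controls and implant libraries overlapped on each day, and the log2 fold changes of 0.06, -0.45 and 0.63 had adjusted p of 0.31 or more (edgeR).

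These values moved with a measure of each library as a whole, the Spearman correlation over genes of exon length with a gene's level relative to its mean, here called the exon length trend. The trend was 0.058 to 0.21 in macrophage controls and 0.039 to 0.25 in monocyte controls, but -0.21 to -0.15 in day 2 macrophages and -0.20 to -0.051 in day 2 monocytes. Macrophage library C of day 14 had a trend of -0.20 beside 0.094 and 0.049 in its group, and monocyte library A of day 28 had -0.14 beside 0.12 and 0.076. Both are the lowest libraries of their group for all 6 members. Over the 23 libraries, the deviation of a member from its group mean (log2 CPM) had a Pearson r with the deviation of the trend of 0.88 for Adam10, 0.88 for Adam9, 0.86 for Adam17, 0.65 for Adam19, 0.60 for Adam8 and 0.42 for Adam15. These r are descriptions over libraries that share the scaling.

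With the trend as a covariate, a choice made after seeing the data, Adam17 and Adam10 passed the test in all 6 comparisons with controls. Adam17 then had log2 fold changes of 1.27 to 1.87 and Adam10 of 1.02 to 2.33, with adjusted p (edgeR) from 0.00032 to 0.021. Adam10 in monocytes on day 14 turned from -0.45 to 1.02. Without both of the libraries that stand apart, Adam17 (1.32, adjusted p = 0.021) and Adam10 (1.27, adjusted p = 0.023) passed in day 28 macrophages and in no other comparison with controls (edgeR). Adam17 in day 28 macrophages also passed without any one of macrophage day 14 A or C, macrophage day 28 C or monocyte day 28 A or B (adjusted p of 0.031 to 0.048). Adam10 there passed without monocyte day 28 A (adjusted p = 0.035). Both passed there without the low count filter and with limma voom, and Adam17 also with DESeq2. Trend and group are partly confounded, since day 2 libraries are all negative and controls all positive, and the cause of the trend was not tested.

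**Figure D3:**
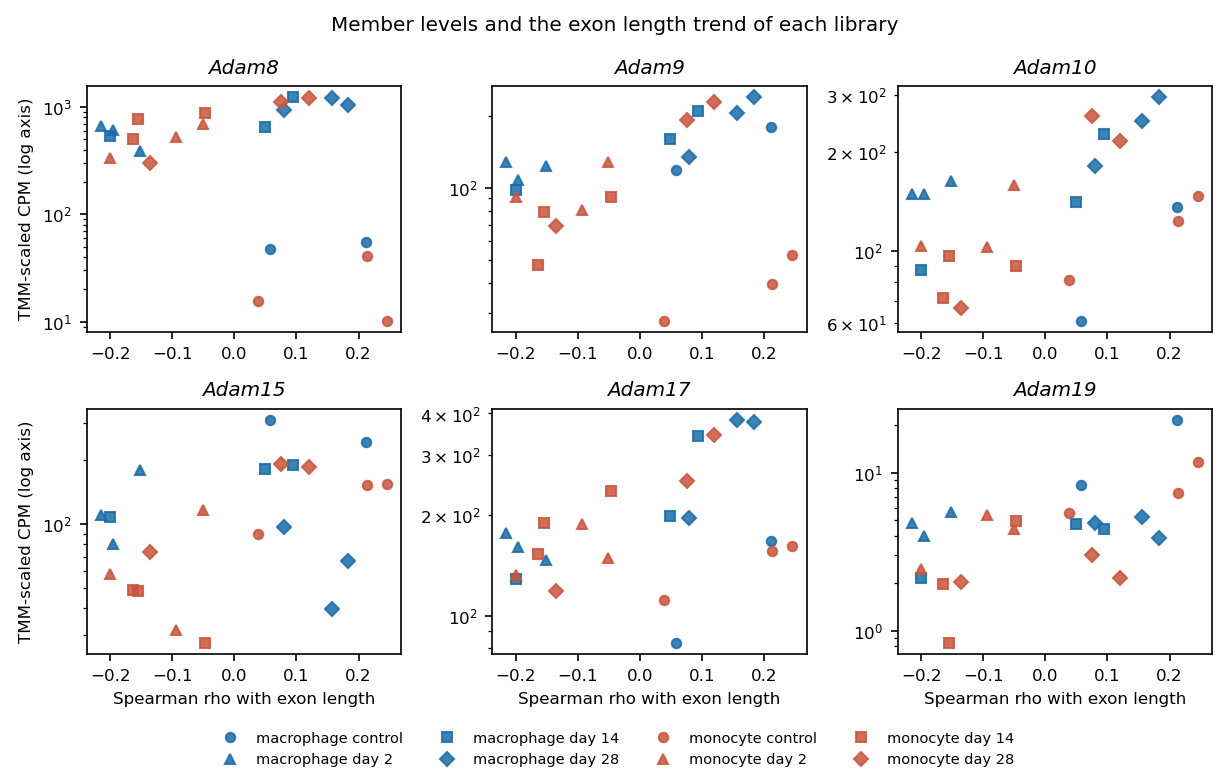
TMM-scaled CPM (log axis) of each member against the exon length trend of the library (Spearman rho), with 1 point per library, colour for cell type and shape for time. Adam9, Adam10 and Adam17 follow the trend most closely within groups (r of 0.86 to 0.88), and the Adam8 controls lie below all implant libraries at any trend.

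Adam9, a widely expressed sheddase, rose in monocytes on days 2 and 28. In monocyte controls it stood at 39.3, 27.7 and 52.3 CPM. It stood at 80.4, 90.9 and 128 CPM on day 2, 79.1, 91.5 and 47.5 CPM on day 14 and 69.0, 227 and 193 CPM on day 28. Days 2 and 28 lay wholly above the controls, and day 14 overlapped them through library C. The log2 fold changes were 1.33 ± 0.39 (adjusted p = 0.016), 0.87 ± 0.39 (adjusted p = 0.080) and 2.03 ± 0.40 (adjusted p = 0.00097) by edgeR. The day 28 rise passed under all 31 alternatives. The day 2 rise missed the threshold without monocyte control A (adjusted p = 0.066), monocyte control B (0.082) or monocyte day 2 C (0.062), and its log2 fold change was 2.62 with the trend covariate. The day 14 value was 2.17 with the trend covariate (adjusted p = 3.1e-05). It also passed with DESeq2 (adjusted p = 0.045), without both libraries that stand apart (0.043) and without monocyte day 28 A (0.039).

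In macrophages Adam9 began higher and passed no comparison with controls. It stood at 179 and 118 CPM in controls, 128, 123 and 107 CPM on day 2, 209, 159.8 and 97.5 CPM on day 14 and 205, 239 and 134 CPM on day 28, and each implant group overlapped the controls. On the log2 scale the differences from controls were -0.32 ± 0.42, 0.07 ± 0.43 and 0.37 ± 0.43, with adjusted p of 0.64 or more (edgeR). With the trend covariate the day 2 value turned to 1.16 (adjusted p = 0.032). Control macrophages held more Adam9 than control monocytes, by a log2 difference of 1.90 ± 0.42 (adjusted p = 0.0042, edgeR), which missed the threshold without macrophage control A (1.58, adjusted p = 0.080). On day 14 this difference was 1.10 ± 0.39 (adjusted p = 0.076, edgeR). It passed with DESeq2 (adjusted p = 0.039), limma voom (0.031) and no low count filter (0.0061). Leaving out both libraries that stand apart (0.015), macrophage day 14 C (0.042) or monocyte day 28 A (0.037) also made it pass. On days 2 and 28 the difference was 0.26 and 0.24, not called. The interaction of implant and cell type was -1.64 ± 0.57 on day 2 (adjusted p = 0.13), -0.80 ± 0.57 on day 14 (adjusted p = 0.43) and -1.66 ± 0.57 on day 28 (adjusted p = 0.099, edgeR). It passed on day 28 without monocyte day 28 A (-2.03, adjusted p = 0.020) and with DESeq2. With the trend covariate it passed on all 3 days (-1.46, -1.45 and -2.23), and on days 2 and 28 it passed without the low count filter and without both libraries that stand apart. On day 2 it also passed with only the groups compared.

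Adam15, a member whose disintegrin domain carries an integrin-binding motif, fell in macrophages on day 28 and in monocytes on day 14. It stood at 244 and 310.1 CPM in macrophage controls, 110.1, 181 and 80.1 CPM on day 2, 190.3, 182 and 108 CPM on day 14 and 39.4, 66.8 and 96.5 CPM on day 28. All 9 implant libraries lay below both controls, where 40.0% to 54.1% of all tested genes did not overlap. The log2 fold changes were -1.16 ± 0.50 (adjusted p = 0.11), -0.79 ± 0.50 (adjusted p = 0.36) and -2.04 ± 0.50 (adjusted p = 0.011) by edgeR. The day 28 fall missed the threshold without macrophage control B (-1.80, adjusted p = 0.12) or macrophage day 28 A (-1.76, adjusted p = 0.056). The day 2 value passed with limma voom (adjusted p = 0.019), without the low count filter (0.011) and with only the groups compared (0.031).

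In monocytes Adam15 stood at 152, 89.4 and 153 CPM in controls, 31.5, 58.0 and 117 CPM on day 2, 48.0, 27.3 and 48.7 CPM on day 14 and 73.5, 186 and 191 CPM on day 28. Day 14 lay wholly below the controls, and days 2 and 28 overlapped them. Against controls the log2 differences were -0.94 ± 0.46 (adjusted p = 0.13), -1.67 ± 0.46 (adjusted p = 0.0082) and 0.19 ± 0.45 (adjusted p = 0.82) by edgeR. The day 14 fall was -0.82 with the trend covariate (adjusted p = 0.35), and the day 2 value passed without monocyte day 2 C (-1.55, adjusted p = 0.025), with limma voom (-1.18, adjusted p = 0.011) and without the low count filter (adjusted p = 0.020). On day 14 macrophages held more Adam15 than monocytes, by 1.95 ± 0.47 (adjusted p = 0.014, edgeR), a difference that had an adjusted p of 0.053 without monocyte day 14 B.

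On day 28 the order of the cell types was the opposite, at -1.15 ± 0.46 (adjusted p = 0.19, edgeR). The interaction on day 28, -2.22 ± 0.68, came closest of all 18 member interactions to the threshold (adjusted p = 0.058, edgeR). It passed without macrophage day 28 C (-2.53, adjusted p = 0.037), monocyte day 28 A (-2.55, adjusted p = 0.027) or either of monocyte day 2 A and C (-2.22 both times, adjusted p = 0.037 and 0.035), and with the trend covariate (-2.59, adjusted p = 0.019). It also passed with DESeq2 size factors, DESeq2, limma voom and no low count filter.

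Adam19, also called meltrin beta and known to process neuregulin, was the lowest member per kilobase in all 8 groups and fell in macrophages on day 14 and in monocytes on days 14 and 28. It stood at 21.7 and 8.39 CPM in macrophage controls, 4.83, 5.64 and 3.99 CPM on day 2, 4.39, 4.77 and 2.15 CPM on day 14 and 5.25, 3.88 and 4.78 CPM on day 28. In monocytes it stood at 7.41, 5.55 and 11.8 CPM in controls, 5.43, 2.45 and 4.39 CPM on day 2, 0.831, 4.96 and 1.97 CPM on day 14 and 2.02, 2.15 and 3.0 CPM on day 28. All 18 implant libraries lay below the controls of their cell type, where 34.8% to 54.1% of all tested genes did not overlap. In macrophages the log2 fold changes were -1.64 ± 0.59 (adjusted p = 0.062), -1.99 ± 0.59 (adjusted p = 0.041) and -1.70 ± 0.59 (adjusted p = 0.071) by edgeR. In monocytes they were -1.02 ± 0.54 (adjusted p = 0.17), -1.67 ± 0.55 (adjusted p = 0.022) and -1.79 ± 0.55 (adjusted p = 0.029).

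The macrophage day 14 fall passed in 19 of 31 alternatives, and it missed the threshold without macrophage control A (-1.15, adjusted p = 0.55), macrophage day 2 A, any of macrophage day 14 A, B and C, or either of monocyte controls A and C (the others -1.73 to -2.20, adjusted p of 0.052 to 0.15). The monocyte day 14 fall passed in 26 of 31 and missed it without monocyte control C, monocyte day 14 A or monocyte day 14 C (adjusted p of 0.065 to 0.094), and it was -2.63 without monocyte day 14 B and -2.32 with limma voom. The monocyte day 28 fall passed in 25 of 31 and missed it without monocyte control A or C or monocyte day 28 A or B (adjusted p of 0.062 to 0.14). With the trend covariate the 3 falls were -1.28, -0.46 and -1.06, with adjusted p of 0.16, 0.63 and 0.16 (edgeR). The macrophage day 2 and day 28 values passed without monocyte day 14 A or B (adjusted p of 0.028 to 0.040) and with DESeq2 and limma voom. With the trend covariate the macrophage day 28 value also passed (-1.58, adjusted p = 0.033, edgeR). The macrophage day 2 value also passed without macrophage day 14 C (0.048) and with only the groups compared (0.033). In monocytes the day 2 value passed with limma voom (-1.43, adjusted p = 0.012).

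**Figure D4:**
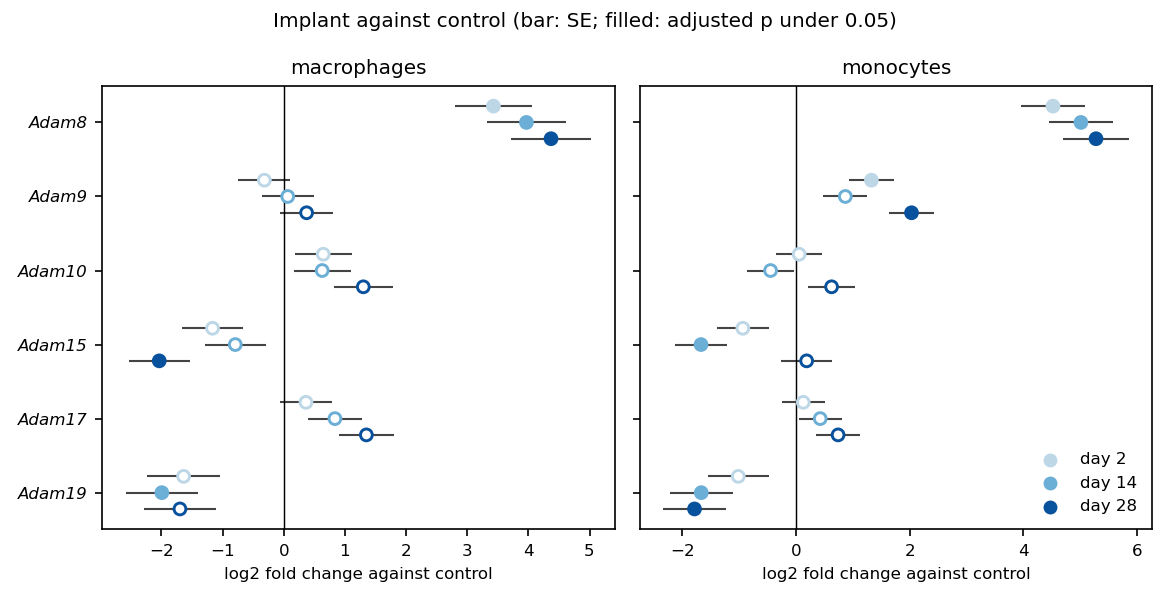
Log2 fold change of each member against the controls of its cell type in macrophages (left) and monocytes (right), with darker points for later days, bars for the SE and filled points where the adjusted p is under 0.05. Adam8 lies at 3.43 to 5.28, Adam19 at -1.99 to -1.02, and Adam10 and Adam17 have open points throughout.

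Counted over the family, 5 of 18 member tests against controls passed in macrophages (3 higher, 2 lower) and 8 of 18 in monocytes (5 higher, 3 lower). In macrophages 1 of 6 members was called higher on each day, where 10.1% of all tested genes were on day 2, 5.51% on day 14 and 6.57% on day 28. Called lower were 0, 1 and 1 of 6, where 7.10%, 2.70% and 3.99% of all genes were. In monocytes 2, 1 and 2 of 6 were called higher on days 2, 14 and 28, beside 15.5%, 19.8% and 11.7% of all genes. Called lower were 0, 2 and 1, beside 11.5%, 17.9% and 6.52%. With 6 members, such counts are no result about the family as a group. The median log2 fold change of the members was 0.02, 0.35 and 0.84 in macrophages and 0.09, -0.01 and 0.68 in monocytes on days 2, 14 and 28, and that of all tested genes lay between -0.16 and 0.

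Between the cell types, 1 of 6 members was called in controls (Adam9) and 1 on day 14 (Adam15), beside 12.5% and 9.37% of all genes. None was called on day 2 or day 28, beside 3.42% and 2.52%, where 0 and 1 had an unadjusted p under 0.05 (edgeR). None of the 24 tests of a later day against day 2 passed, and 2 had an unadjusted p under 0.05 (Adam17 in macrophages and Adam15 in monocytes, both on day 28). The share of all genes called was 0.474% and 4.26% in macrophages on days 14 and 28 and 0.726% and 0.867% in monocytes. None of the 18 interactions passed, 3 had an unadjusted p under 0.05, and 3.78%, 7.55% and 5.77% of all genes were called on days 2, 14 and 28.

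Over the 8 group means of log2 CPM, Adam17 ran with Adam10 (Pearson r = 0.76) and Adam8 (0.75), and Adam8 ran against Adam19 (-0.78). The genes most like each member by this r, among 5702 candidates with a mean of at least 10 CPM, were as follows. Adam8 was most like Sphk1 (0.99), the gene of sphingosine kinase 1, Pdpn (0.99), the gene of podoplanin, and Rai14 (0.98). Adam9 was most like Abcc3 (0.98), Myc (0.96) and Gnpda2 (0.96), and Adam10 was most like Mmgt1 (0.96), Kpna6 (0.95) and Gnai3 (0.91). Adam15 was most like Nudt16 (0.98), Uck1 (0.98) and Tdp2 (0.96), and Adam17 was most like Lasp1 (0.99), Ykt6 (0.97) and Cd82 (0.97). Adam19 was most like Inpp4a (0.97), Mus81 (0.97) and Ticam2 (0.96). The group means share libraries and scaling.

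The ligands of the EGF receptor family, are released from the cell surface by ADAM10 and ADAM17. Of 8 listed genes 5 were tested, and 2 to 4 of them rose in each of the 6 comparisons with controls while none fell. Of all genes tested, 5.51% to 19.8% rose and 2.70% to 17.9% fell in these comparisons, and these shares stand beside each list's counts. Nrg1 (neuregulin 1) rose in all 6. It stood at 0.0599 to 0.849 CPM in macrophage controls and 14.3 to 28.3 CPM on day 2 (log2 fold change 5.75 ± 0.99, adjusted p = 0.00048, edgeR). In monocytes it stood at 3.12 to 3.95 CPM in controls and 72.9 to 247 CPM on day 2 (5.32 ± 0.75, adjusted p = 3.1e-05). Areg (amphiregulin) had 1 count over the macrophage controls and 3 over the monocyte controls, and rose in all 6 comparisons, to 8.70 to 32.8 CPM in day 2 macrophages and 13.4 to 34.6 CPM in day 28 monocytes. Hbegf rose in day 2 macrophages (3.26 ± 0.91, adjusted p = 0.018) and in monocytes on all 3 days (4.87 ± 0.84 on day 14, adjusted p = 0.00017).

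Of the 6 tested cytokine and growth factor substrates, 2 or 3 rose in each comparison and 1 fell in day 2 macrophages, which was Kitl (named because it was the one that fell). Csf1, which encodes the macrophage growth factor, rose in all 6, by 4.03 ± 0.67 in day 28 macrophages (adjusted p = 0.00045) and 3.65 ± 0.55 in day 28 monocytes (adjusted p = 6.6e-05, edgeR). Tnf, the classic substrate of ADAM17, stood at 14.4 to 25.9 CPM in macrophage controls and 55.7 to 106 CPM on day 2 (1.93 ± 0.53, adjusted p = 0.017, edgeR). It rose in monocytes on all 3 days, by 3.12 ± 0.48 on day 14 (adjusted p = 5.6e-05), and did not pass in macrophages on days 14 and 28. Cxcl16, a transmembrane chemokine cut by ADAM10, rose in 5 of 6 comparisons. It stood at 19.1 to 24.1 CPM in monocyte controls and 470.4 to 967 CPM on day 28 (4.96 ± 0.36, adjusted p = 5.4e-09, edgeR).

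All 17 receptor substrates listed were tested, and 2 to 4 rose and 1 to 6 fell in each comparison with controls, with medians of -0.51 to 0.35 on the log2 scale. Il1r2, the decoy receptor of interleukin-1, rose in all 6. It stood at 3.63 to 4.77 CPM in macrophage controls and 184 to 309 CPM on day 2 (5.89 ± 0.68, adjusted p = 6.5e-06, edgeR). In monocytes it stood at 2.08 to 5.65 CPM in controls and 663 to 1201 CPM on day 14. Havcr2 and Trem2, also among the smallest adjusted p of this list, averaged 11.6 and 300 CPM in macrophage controls and 119 and 845 CPM on day 28. In monocytes they averaged 54.0 and 37.6 CPM in controls and 345 and 257 CPM on day 28. Il6ra, the interleukin-6 receptor that ADAM10 and ADAM17 shed, is named here outside the rule of smallest adjusted p. It fell in monocytes on all 3 days (day 2 -2.72 ± 0.56, adjusted p = 0.0013, edgeR). In macrophages its values were -0.12 ± 0.58 to -0.56 ± 0.58, none called, and the interactions did not pass (lowest adjusted p = 0.057). Mertk, an efferocytosis receptor, rose in monocytes by 6.56 ± 0.67 on day 28 (adjusted p = 6.1e-07) and not in macrophages (-0.01 ± 0.57). Its interaction passed on all 3 days (day 28 -6.58 ± 0.84, adjusted p = 4.6e-05, edgeR). Mertk is itself one of the 10 macrophage markers, whose sum in monocytes was 3017 to 3870 CPM in controls and 6667 to 9246 CPM on day 28. Among them C1qa averaged 1.25 CPM in monocyte controls and 356 CPM on day 28, and their part in this was not tested.

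Of the 14 tested adhesion and other membrane substrates, 7 to 9 rose in each comparison and 0 to 2 fell. Their median log2 fold change was 1.48 to 2.64 in macrophages and 0.85 to 0.96 in monocytes, beside -0.16 to 0 over all genes. Sdc4, a cell-surface proteoglycan gene, rose in all 6. It stood at 1.06 to 2.25 CPM in monocyte controls and 371 to 455 CPM on day 14 (7.97 ± 0.40, adjusted p = 2.4e-11, edgeR). In macrophages the rise was 2.59 ± 0.37 on day 14. Cd44, the hyaluronan receptor, rose in macrophages on all 3 days (day 28 4.0 ± 0.38, adjusted p = 7.3e-07) and in monocytes on days 2 and 14.

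Of 5 inhibitors tested, 1 or 2 rose and 0 or 1 fell in each comparison, and Timp1 rose in all 6. It stood at 1.68 to 1.83 CPM in macrophage controls and 114 to 284, 47.5 to 108 and 52.9 to 146 CPM on days 2, 14 and 28, and no implant library came near the controls. The log2 fold changes were 6.90 ± 0.70, 5.38 ± 0.65 and 5.72 ± 0.66, with adjusted p of 1.4e-05 or less (edgeR). In monocytes it stood at 0.0237 to 0.153 CPM in controls and 243 to 267 CPM on day 14, a log2 fold change of 11.46 ± 0.72 (adjusted p = 4.1e-10, edgeR). Timp2 fell in day 2 monocytes (-2.06 ± 0.65, adjusted p = 0.024) and passed no other comparison with controls. Timp3, the TIMP known to inhibit ADAM17 and ADAM10, stayed under 5 CPM in every library. It had 59 counts over the macrophage controls, 0 on day 2 and 1 on day 14, which were called lower, and it had 0 counts in monocyte controls. In monocytes it was called higher on days 14 and 28, by at least 103-fold and 118-fold against a floor of 3 counts over the control group. The 8 fibroblast markers, a cell type that expresses Timp3, summed to 0.13 to 1.02 CPM in monocyte controls, 612 to 1119 CPM in day 14 monocytes and 274 to 668 CPM in day 28 monocytes. In macrophages they summed to 192 to 259 CPM in controls, 5.97 to 52.2 CPM on day 2, 23.9 to 76.5 CPM on day 14 and 30.5 to 114 CPM on day 28. Their part in the level of Timp3 was not tested.

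Of 8 tested sheddase partners (iRhoms, FRMD8 and TspanC8 tetraspanins) none rose, and 0 to 3 fell in each comparison. Rhbdf1 (iRhom1) fell in day 2 macrophages. It stood at 13.4 to 30.7 CPM in controls and 0.0947 to 0.823 CPM on day 2 (-5.86 ± 1.4, adjusted p = 0.0069, edgeR). Frmd8, which stabilises the iRhom and ADAM17 complex, fell in monocytes on days 2 and 14 (-1.59 ± 0.36 on day 14, adjusted p = 0.0019, edgeR). Rhbdf2 (iRhom2) and Tspan14, named here after their values were seen because they serve ADAM17 and ADAM10 in leukocytes, passed no comparison with controls. Their log2 fold changes ran from -0.59 ± 0.39 to 1.07 ± 0.45 for Rhbdf2 and from -0.54 ± 0.29 to 0.49 ± 0.33 for Tspan14.

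Of 4 proprotein convertases, Furin rose on day 28 in macrophages (2.48 ± 0.54, adjusted p = 0.0048) and monocytes (1.42 ± 0.45, adjusted p = 0.031, edgeR), and 0 to 2 of the 4 rose in each comparison. Among 7 gamma-secretase genes, which finish the cleavage that ADAM10 begins, 0 to 3 rose and 0 or 1 fell in each. Of 8 other ADAM genes 5 were tested, and Adam33 fell in macrophages on all 3 days (adjusted p of 0.022 to 0.046, edgeR), where the fibroblast marker sum was also below that of the controls. In monocytes that sum was above the controls after implantation. Adam33 averaged 1.49 CPM in monocyte controls and 0.16, 1.43 and 1.11 CPM on days 2, 14 and 28, none called. Of 19 secreted ADAMTS genes 9 were tested. In monocytes 1, 4 and 3 of the 9 rose on days 2, 14 and 28 and 1 fell on each day, and in macrophages none rose and 2, 1 and 1 fell. The fibroblast marker sums given for Timp3 were above controls in implant monocytes and below them in implant macrophages. The 1 fall in monocytes on each day, that of Adamts10, went the other way from these sums. Their part in the counts was not tested. Adamts10 fell in all 6 comparisons. It stood at 28.2 to 76.7 CPM in macrophage controls and 4.23 to 5.44 CPM on day 28 (-3.43 ± 0.59, adjusted p = 0.00062) and at 29.7 to 108 CPM in monocyte controls and 3.74 to 5.07 CPM on day 28 (-4.01 ± 0.58, adjusted p = 4.2e-05, edgeR).

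**Figure D5:**
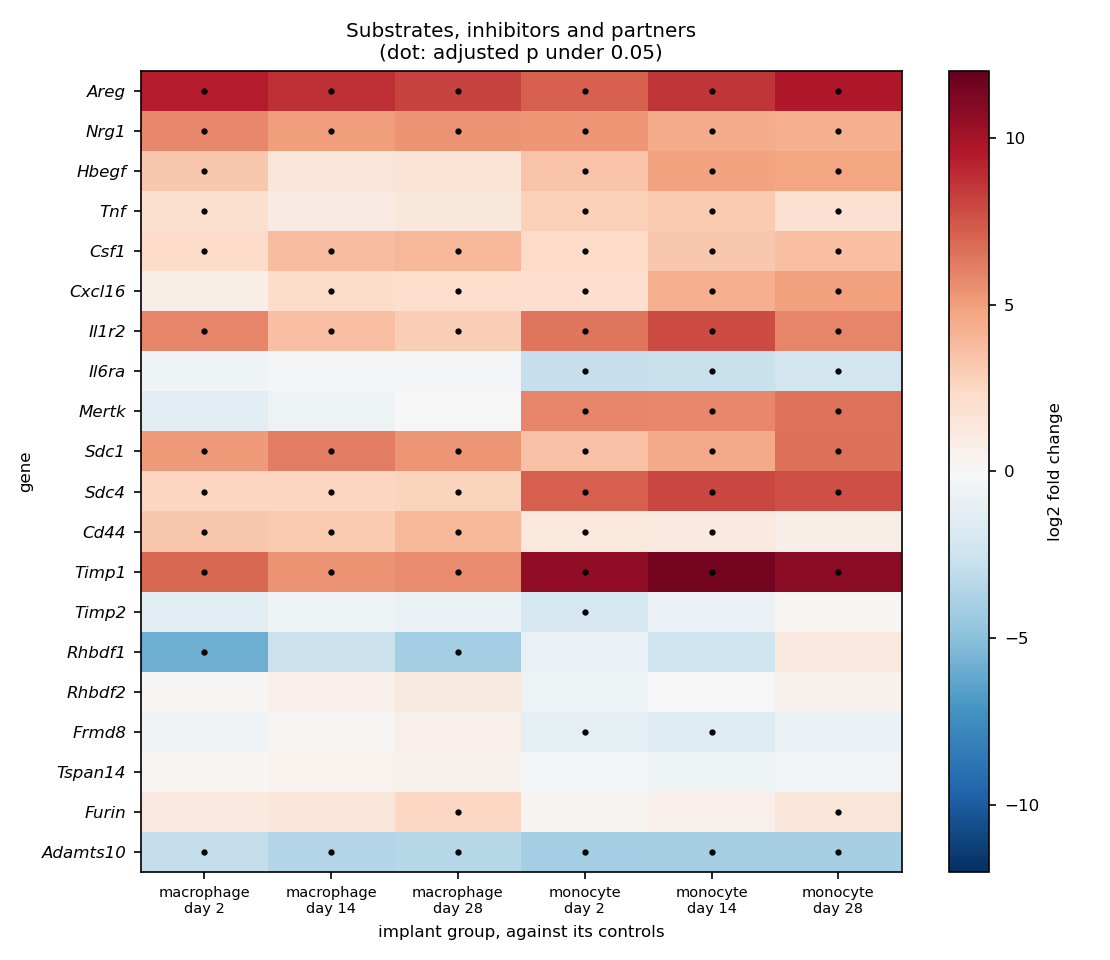
Log2 fold change against controls (colour) of 20 substrate, inhibitor, partner and related protease genes (rows) in the 6 implant groups (columns), with a dot where the adjusted p is under 0.05. Areg, Nrg1, Csf1, Il1r2, Sdc1, Sdc4 and Timp1 carry a dot for a rise in all 6 columns and Adamts10 for a fall, while the colour of Areg rests on 1 and 3 control counts and gives no size.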

How the data were processed

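RNA from 23 sorted cell samples was made into libraries with the SMART-Seq v4 and Nextera XT kits and sequenced as single reads, per the labels' protocols. The authors deposited whole-number counts per gene, and GRCm38, STAR 2.4.1d and featureCounts of Subread 1.5.1 are named per the submitters' processing notes. Neither annotation release nor strand setting is stated (not given in the sources used here). Entries were matched by Ensembl ID to GENCODE M21 for coordinates and merged exon length.

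Counts were filtered by group (filterByExpr), scaled by TMM and fitted over all 8 groups with edgeR 4.0.16 (robust quasi-likelihood, R 4.3.3). The 17 comparisons were each adjusted over all 16260 genes by Benjamini-Hochberg, with a threshold of 0.05. The fits were checked on simulated counts. The alternatives used DESeq2 1.42.0, limma 3.58.1 and other settings. Members and lists were chosen with earlier results of these data known. At most 4 genes a list were named by rule, those with the smallest adjusted p in a comparison with controls. Il6ra, Rhbdf2 and Tspan14 were named outside this rule. Genes alike were the 3 with the highest Pearson r over group means, among genes averaging 10 CPM or more with a log2 range of 1 or more, leaving out predicted, receptor segment, mitochondrial and sex-linked genes.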

Additional observations from a re-analysis of the deposited data

How the results depend on the processing

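All comparisons of the members with controls and between cell types, and 5 of those between days or of interactions, were followed through 31 alternatives (65 tests, 2015 values), and gained calls in the other comparisons enter only the counts of calls. Of these values 1857 kept direction and side of the threshold, 31 lost and 83 gained a call, and 44 changed sign. Calls against controls (5 in macrophages, 8 in monocytes) became 8 with DESeq2, 10 with limma voom and 12 with the exon length covariate in macrophages. In monocytes they became 9, 10 and 12 in turn. The covariate, like leaving out both libraries apart in that trend, was added after seeing the data. Calls between cell types (2) became 7 without the low count filter and 4 without both libraries. Later days against day 2 (0) gave 3 without the filter and 1 each with limma voom, only the groups compared, and without both libraries. Interactions (0) gave 1 each with DESeq2 size factors, limma voom and only the groups compared, 2 with DESeq2, 3 without the filter, 4 with the covariate and 3 without both libraries. Leaving out each library gave 4 to 7, 6 to 8, 1 to 3 and 0 to 2 calls in macrophages, monocytes, cell types and interactions. The causes were not tested. Counts over all genes moved by 0.00245 to 8.9 times over the comparisons with all libraries in, lowest with only the groups compared and highest with limma voom. Libraries of 9303153 counts or more limit precision most for Adam19, the member with the lowest counts.

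Over pairs of libraries from all groups, same-lettered replicates had r of -0.23 to 0.24 (median -0.012, 77 pairs) between their deviations from group means. Pairs with different letters had r of -0.29 to 0.29 (median 0.0089, 154 pairs). Because days and cell types are pooled, these r cannot tell whether letters pair the cell types within a day, which was not tested. With the replicate block the calls were 4 in macrophages, 8 in monocytes, 2 between cell types, 0 and 0, and Adam19 in day 14 macrophages was -1.98 (adjusted p = 0.071).

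Signs turned in values that were not called. Adam10 in day 2 monocytes was -0.027 without the filter, -0.12 with limma voom and -0.029 without both libraries, and Adam17 there was -0.060 with limma voom. With the covariate, Adam9 in day 2 macrophages was 1.16, Adam19 in day 2 monocytes 0.23 and Adam10 in day 14 monocytes 1.02. Macrophage minus monocyte values were then -0.32 (Adam8) and -0.31 (Adam17) on day 14 and -0.044 (Adam8), -0.18 (Adam9), -0.025 (Adam10) and -0.028 (Adam17) on day 28, and day 28 minus day 2 in macrophages -0.48 (Adam8) and -0.51 (Adam17). Without both libraries, Adam8 and Adam9 were -0.11 and -0.11 between cell types on day 28. Leaving out each library gave ranges across 0 for Adam17 in day 2 macrophages (-0.084 to 0.89) and monocytes (-0.085 to 0.23), Adam9 in day 14 macrophages (-0.21 to 0.39), Adam10 in day 2 monocytes (-0.20 to 0.21) and Adam15 in day 28 monocytes (-0.027 to 0.51). Between cell types they were -0.93 to 0.17 (Adam10) and -0.78 to 0.19 (Adam17) in controls, -0.13 to 0.37 (Adam8), -0.064 to 0.20 (Adam17) and -0.022 to 0.50 (Adam19) on day 2, -0.29 to 0.40 (Adam8) and -0.24 to 0.52 (Adam17) on day 14, and -0.12 to 0.61 (Adam8) and -0.12 to 0.56 (Adam9) on day 28.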
